A study of Rattus norvegicus with 4 samples.

Results

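Kit, the receptor tyrosine kinase of oocytes, and Kitlg, its ligand, are the 2 genes described here, across rat ovaries cultured with or without glial cell line-derived neurotrophic factor (GDNF). Their members were the probe sets whose symbol in the array's platform annotation is exactly Kit or Kitlg, which gave 5 of 31042 probe sets: 1 for Kit (1369822_at) and 4 for Kitlg (1388856_at, 1396214_at, 1370770_s_at and 1388096_at). A probe set is a group of short probes that read the same transcript, and its signal is 1 number per array on a linear scale. Both GDNF samples and both control samples came from ovaries of 4-day-old pups kept whole on floating filters for 2 days in medium with insulin, transferrin and ascorbic acid. GDNF samples received the factor, at a dose the labels do not state, and control samples received none. Each of the 4 samples was RNA of 6 to 10 ovaries pooled within a treatment, with at most 1 from any animal, and measured on 1 Affymetrix array. The strain is not named in the labels, and nothing in the labels says that replicates were separate cultures, so a p-value here speaks to sample-to-sample spread alone, part of which may be technical.

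Kit spans the plasma membrane and belongs to the class III receptor tyrosine kinases. In the neonatal ovary it sits on oocytes and on theca and interstitial cells, while Kitlg is made by granulosa cells and their flattened precursors as a membrane-bound protein that can also be shed. Ligand binding pairs the receptors, which then signal through PI3K and Akt, through Ras and the MAP kinases, and through Src and Jak kinases. In mice, PI3K signalling below Kit moves Foxo3 out of the oocyte nucleus, a step in the activation of resting primordial follicles. In cultured rat ovaries, added Kit ligand is known to promote the step from primordial to primary follicles, and the series title names primordial follicle development as its subject for GDNF.

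The windows just before the outermost annotated start of both genes are shown because the regulator genes described further on include factors that read these motifs. They come from RefSeq on the GRCr8 build, run 5′ to 3′ on the gene's strand, and carry in capitals each match to TATAAA (the TATA box), GGGCGG (the GC box read by Sp1) or CANNTG (the E-box read by Sohlh1, Mitf and Tal1), on either strand with overlapping matches merged. The Kit window is chr14:32978896-32979062 on the minus strand, and the Kitlg window is chr7:36782410-36782620 on the plus strand.
Kit: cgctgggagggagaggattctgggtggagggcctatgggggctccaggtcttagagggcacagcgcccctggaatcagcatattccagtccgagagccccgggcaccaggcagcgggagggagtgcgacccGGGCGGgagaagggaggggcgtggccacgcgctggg
Kitlg: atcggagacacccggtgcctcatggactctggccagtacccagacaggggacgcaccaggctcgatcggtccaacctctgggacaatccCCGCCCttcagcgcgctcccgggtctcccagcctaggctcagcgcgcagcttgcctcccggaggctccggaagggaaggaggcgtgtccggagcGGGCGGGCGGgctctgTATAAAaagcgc
The Kit window of 167 bases held 1 GC box, found in 18.9% of 33469 windows of that length over all genes. It held 0 TATA boxes (8.42% of windows had one) and 0 E-boxes (51.8%). The Kitlg window of 211 bases held 3 GC boxes (26.0% of windows of that length had at least 1), 1 TATA box (10.6%) and 0 E-boxes (59.7%). Both windows were rich in G and C, at 70.1% for Kit and 67.8% for Kitlg. The windows over all genes were cut from the far end of each upstream sequence, so they stopped short of the start. The Kit and Kitlg windows ended at their outermost annotated start. The shares thus leave out bases next to the start and are not a like-for-like measure. A match describes these letters only, and binding was not measured.

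Neither gene passed the test, and the means of Kit and of the brightest Kitlg probe set lay in opposite directions. Kitlg, on its brightest probe set, was lower in both GDNF samples than in both control samples, a difference of -21.2% between the group means. Kit had a higher mean in GDNF samples, but its groups overlapped. Of the 5 probe sets, 3 reached the level needed for testing (the 40th percentile of mean signals, near 21.4 units), and 2 dim Kitlg probe sets did not. None of the 3 passed in limma at an adjusted p of 0.05, and neither did any of the 18625 probe sets tested (0 called, 0%). At an unadjusted p under 0.05 there were 508 probe sets (2.73%), and 1 of the 3 members was among them. Both GDNF samples lay below both control samples in 16.6% of all probe sets tested and above them in 13.4%. Of the members tested, 1 was below, 0 were above and 2 overlapped, so a lack of overlap by itself is common on these arrays.

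**Figure D1:**
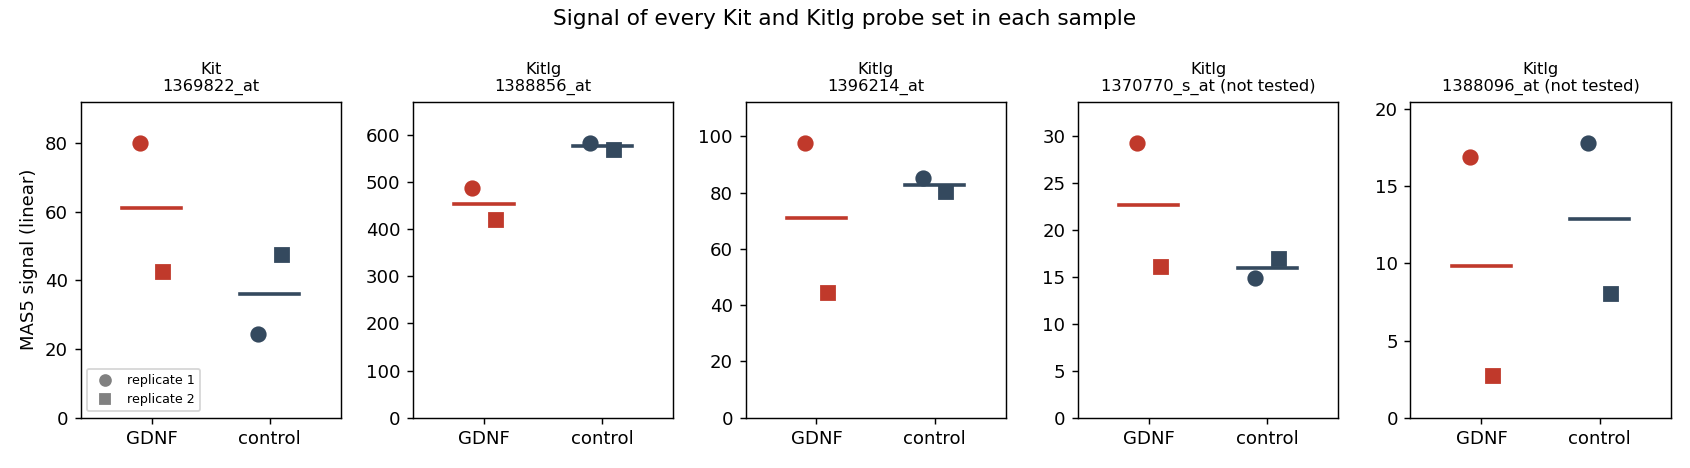
MAS5 signal (linear scale from 0, a different range in each panel) of the Kit probe set and the 4 Kitlg probe sets. Points are samples (circle replicate 1, square replicate 2), horizontal lines are group means, and panels headed "not tested" lay below the level filter. The brightest Kitlg probe set is the one panel in which the groups do not overlap, with 488 and 418.6 in GDNF and 582.4 and 568.6 in control samples.

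The receptor gave 80 and 42.3 units of signal in GDNF replicates 1 and 2, against 24.5 and 47.4 in control replicates 1 and 2. GDNF replicate 1 was the highest and control replicate 1 the lowest of the 4, and the replicate 2 samples of both groups lay close together between them, the GDNF one slightly below the control one. The means were 61.2 ± 26.7 in GDNF and 36.0 ± 16.2 in control samples (SD, n = 2 each), and the log2 fold change, GDNF minus control on log2(signal + 1), was 0.75 (SE 0.40, limma adjusted p = 0.999). Its 95% interval ran from -0.19 to 1.70, that is from 0.874-fold to 3.25-fold. On the log2 scale the replicates differed by 0.90 within GDNF and 0.92 within control, more than the groups did. Only 0.150% of all probe sets tested had a log2 fold change as high or higher, yet Kit ranked 1276 of 18625 by p. The difference rested on the replicate 1 samples: it was 0.30 without GDNF replicate 1 and 0.29 without control replicate 1, but 1.21 without GDNF replicate 2 and 1.22 without control replicate 2.

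The brightest ligand probe set, 1388856_at, gave 488 and 418.6 units of signal in GDNF replicates 1 and 2, against 582.4 and 568.6 in control replicates 1 and 2. The control samples were nearly equal, and both GDNF samples lay below them. The means were 453 ± 49.1 in GDNF and 576 ± 9.76 in control samples (SD, n = 2 each), which is -0.35 as a log2 fold change (SE 0.12, unadjusted p = 0.0210 and adjusted p = 0.999 in limma). The 95% interval, unadjusted for the number of probe sets, ran from -0.63 to -0.07, that is from 0.648-fold to 0.953-fold. The replicates differed by 0.22 within GDNF and by 0.03 within control on the log2 scale, less than the groups did. It ranked 190 of 18625 by p, and 5.05% of all probe sets tested had a log2 fold change as low or lower. The value stayed negative with each sample left out, at -0.24 without GDNF replicate 2, -0.46 without GDNF replicate 1, and between those bounds without either control sample.

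The other Kitlg probe sets did not show the same order of samples. The next brightest, 1396214_at, gave 97.6 and 44.3 in GDNF replicates 1 and 2, against 85.3 and 80.1 in control replicates 1 and 2. GDNF replicate 1 was the highest and GDNF replicate 2 the lowest of the 4, so the GDNF samples straddled the control samples. Its log2 fold change of -0.32 (SE 0.34, limma adjusted p = 0.999, 95% interval -1.14 to 0.49) came close to that of the brightest probe set, but it turned to 0.24 without GDNF replicate 2 and was -0.89 without GDNF replicate 1. The dimmer 1370770_s_at gave 29.2 and 16 in GDNF samples, against 14.9 and 16.9 in control samples, a difference of 0.43 on the log2 scale, which was 0.011 without GDNF replicate 1. In Affymetrix naming, the suffix s marks a set whose probes match more than a single transcript. The dimmest, 1388096_at, gave 16.9 and 2.7 in GDNF samples, against 17.8 and 8.0 in control samples, a difference of -0.68, which was 0.46 without GDNF replicate 2 and -1.81 without GDNF replicate 1. Both dim sets overlapped between the groups, and neither was tested. GDNF replicate 1 was the higher GDNF sample in all 4 Kitlg probe sets, and in the Kit probe set as well. Levels of different probe sets cannot be set against each other, since each binds its target with its own strength, and which Kitlg transcripts each set reads was not analysed here.

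**Figure D2:**
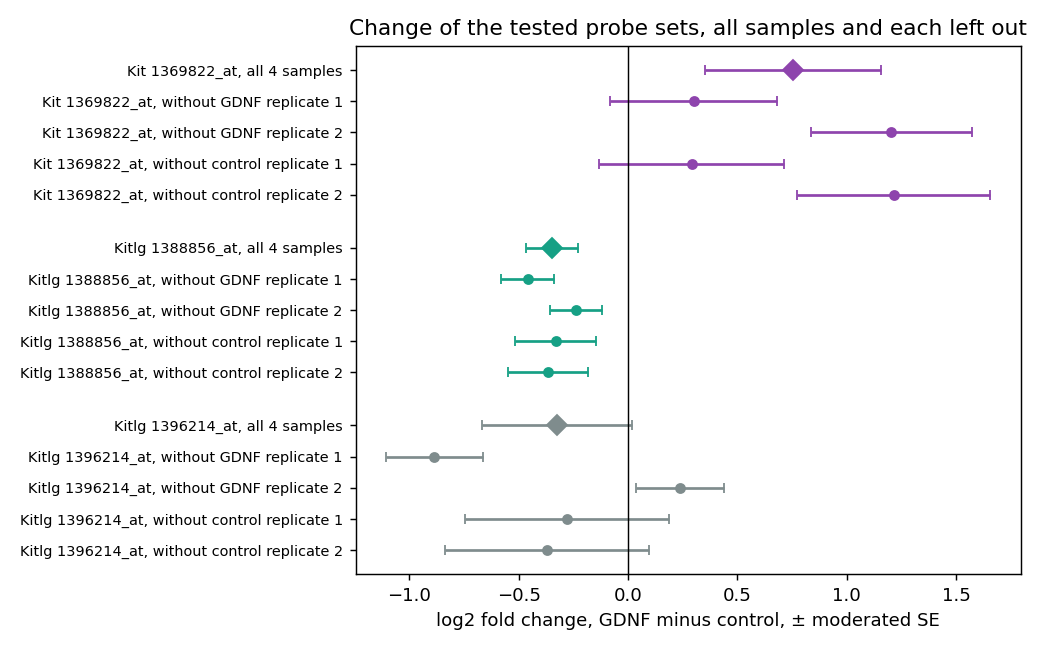
Log2 fold change, GDNF minus control, of the 3 tested probe sets with all 4 samples (diamonds) and with each sample left out (circles); bars are limma's moderated standard errors. The brightest Kitlg probe set stays between -0.46 and -0.24, Kit runs from 0.29 to 1.22, and Kitlg 1396214_at crosses 0.

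Set beside each other as log2 deviations from their own means over the 4 samples, Kit stood at 0.83 and -0.08 in GDNF replicates 1 and 2 and at -0.84 and 0.09 in control replicates 1 and 2. Kitlg, on its brightest probe set, stood at -0.06 and -0.28 in GDNF and at 0.19 and 0.16 in control samples. The Kit deviation minus the Kitlg deviation was therefore 0.89 and 0.21 in GDNF samples, against -1.03 and -0.07 in control samples, with no overlap. That balance was 1.10 higher in GDNF samples, while the control replicates lay nearly as far apart. The direction of the balance was fixed by the members, whose means lay in opposite directions, so it adds no support for a difference. As a score over both members the balance was not tested. Most of its size came from Kit.

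Kit and Kitlg are carried by different cells, and the markers of those cells differed in their own ways between the samples. In pooled whole ovaries, fewer cells of a type and less RNA per cell cannot be told apart. Of 21 oocyte markers, 8 had a probe set annotated to them alone, and all 8 tested had a higher mean in GDNF samples. Of these, 4 lay above with no overlap, beside 13.4% of all probe sets tested, and 0 were called. Gdf9 passed with the replicate number as a block (limma adjusted p = 0.0469) but not in the main fit (limma adjusted p = 0.999). The block left 1 residual degree of freedom, and what the replicate number marks is not in the labels. The median log2 fold change was 0.40, against -0.0067 over all probe sets tested. That median was 0.20 without GDNF replicate 2 and 0.21 without control replicate 1. Gdf9, an oocyte-secreted growth factor, gave 902.2 and 1000.5 in GDNF samples, against 545 and 706.1 in control samples. Zp3, a zona pellucida glycoprotein, gave 2106.4 and 2732.4 in GDNF samples, against 1664.8 and 2014.2 in control samples, a log2 fold change of 0.39 that was 0.20 without GDNF replicate 2. Summed signals of the oocyte markers were 6554 and 8482 in GDNF, against 5204 and 6430 in control samples, but they overlapped without Gdf9, at 5652 and 7482 in GDNF and 4659 and 5724 in control samples. Control replicate 1 was the lowest for Kit and for the oocyte sum alike, but GDNF replicate 2 held the highest oocyte sum and a lower Kit signal than control replicate 2. The part of the oocyte content in the Kit difference was not tested. The highest oocyte markers were Gdf9 (log2 fold change 0.61) and Zp1, another zona protein (0.61, and 0.33 without control replicate 1). The lowest were Uchl1, a ubiquitin hydrolase of germ cells and neurons (0.19), and Sohlh1 (0.26), and both turned without GDNF replicate 2, to -0.05 and -0.03.

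Theca and interstitial cells, the other ovarian carriers of Kit, showed no common direction. Of 12 markers, 9 were tested, 5 with a higher and 4 with a lower mean, 0 called and a median of 0.04. Hsd3b1, which makes progesterone from pregnenolone, stood highest (0.51), followed by the luteinizing hormone receptor Lhcgr (0.29, and -0.14 without GDNF replicate 1). The lipoprotein receptor Scarb1 (-0.34, and -0.15 without control replicate 2) and the steroidogenic factor Nr5a1 (-0.26, and -0.079 without control replicate 1) stood lowest. Their summed signals, 2145 and 2126 in GDNF and 1966 and 2014 in control samples, did not overlap, but without Hsd3b1 they were 1595 and 1612 in GDNF and 1560 and 1669 in control samples and did overlap.

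Mast cells and melanocytes also carry Kit. Of their defining markers, Ms4a2 and Tyr were near the floor, while Cpa3 and Dct reached the level filter. Of 16 mast cell markers, 13 had a probe set and 4 were tested, 1 with a higher and 3 with a lower mean (median -0.24, and -0.014 without control replicate 1, 0 called). Both probe sets of Ms4a2, a chain of the IgE receptor, gave between 0.4 and 4 in GDNF and between 0.6 and 11 in control samples. Cpa3, a mast cell carboxypeptidase, gave 43.5 and 39.8 in GDNF samples, against 55.9 and 32.6 in control samples. The highest was the protease Mcpt1 (0.66, and -0.16 without GDNF replicate 1), followed by Cpa3 (-0.04), and the lowest were Cma1 (-0.56, and -0.37 without control replicate 1) and Tpsb2 (-0.44). Mcpt1 reached the filter only through the GDNF samples, and Tpsb2 only through the control samples. Summed over the 4 tested, the signals were 144 and 101 in GDNF and 156 and 106 in control samples, and they overlapped. Without Mcpt1 both GDNF sums (91.5 and 84.6) lay below both control sums (128 and 94.9). That sum still held Tpsb2, tested only through the control samples, so its gap is no support for a difference. Without Tpsb2 the sums overlapped, at 124.3 and 79.8 in GDNF and 129.2 and 78.1 in control samples. Of 9 melanocyte markers, 7 had a probe set and 2 were tested, both with a slightly higher mean, Dct (0.11) and Mitf (0.09). Tyr, the tyrosinase of pigment synthesis, gave 1.3 and 3.3 in GDNF and 1.1 and 1.3 in control samples, while Dct, a pigment enzyme, gave 138.7 and 168 in GDNF samples, against 141 and 142.6 in control samples. The melanocyte sums, which were mostly Dct, were 164 and 202 in GDNF and 170 and 168 in control samples and overlapped. The pigment-cell genes Tyrp1, Pmel and Mlana lay below the level filter in every sample, as Tyr did. The part of either cell type in the Kit signal was not tested.

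Around Kitlg, granulosa markers went both ways. Of 18 listed, 14 were tested, with 8 higher and 6 lower, 0 called and a median of 0.09 (0.18 without control replicate 1). Without overlap, 5 lay above and 5 below, beside 13.4% above and 16.6% below over all probe sets tested. Hsd17b1, which makes estradiol from estrone, stood highest (0.83, and 0.33 without GDNF replicate 1), followed by Amh (0.58), the anti-Müllerian hormone. Amh gave 233.1 and 204.3 in GDNF samples, against 153.5 and 137.5 in control samples, and Foxl2, a granulosa transcription factor, gave 686.1 and 690.2 in GDNF samples, against 591 and 624.3 in control samples. Both lay higher in GDNF samples with no overlap, the side opposite to Kitlg. Gdf9, Zp3, Amh and Foxl2, the defining markers of oocytes and granulosa cells, were thus all present, as the ovary label requires. The homeobox genes Irx5 (-0.65, and -0.39 without control replicate 1) and Irx3 (-0.39) stood lowest, on the same side as Kitlg. Summed granulosa signals were 9037 and 8794 in GDNF and 8995 and 8482 in control samples and overlapped, but without Wt1 or without Irx3 both GDNF sums lay above both control sums. The part of granulosa cells in the Kitlg difference was not tested.

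Surface epithelium and endothelium can also make Kitlg. Of 12 epithelial markers, 10 were tested, 3 with a higher and 7 with a lower mean (median -0.22, and 0.025 without control replicate 1, 0 called). The adhesion protein Dsp (0.57, and -0.02 without GDNF replicate 1) and Aldh1a1 (0.21) stood highest, and Lgals7 (-0.46) and Upk1b (-0.41, and -0.040 without control replicate 1) lowest. Lgals7 reached the filter only through its control samples. Their sums were 6175 and 5536 in GDNF and 7163 and 6177 in control samples, separated by a narrow gap. All 6 endothelial markers tested, of 10, had a lower mean (median -0.11, and -0.055 without GDNF replicate 2, 0 called), and their sums were 1270 and 1187 in GDNF, against 1360 and 1367 in control samples. Kdr, the receptor of vascular endothelial growth factor, stood lowest (-0.19), followed by Pecam1 (-0.13, and 0.0092 without GDNF replicate 2), with Esam (-0.04) and Emcn (-0.0025) nearest to 0. Esam turned to 0.12 and Emcn to 0.12 without GDNF replicate 2. Both sums lay lower in GDNF samples, as Kitlg did, but neither gap held when each gene was left out in turn, a step added after seeing the data. The epithelial sums overlapped without Krt19, without Krt7 or without Lgals7, and the endothelial sums without Kdr. Without Krt19 the epithelial sums were 2810 and 2300 in GDNF and 3073 and 2545 in control samples, and without Kdr the endothelial sums were 452 and 409 in GDNF and 458 and 447 in control samples. The part of either cell type in the Kitlg difference was not tested.

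**Figure D3:**
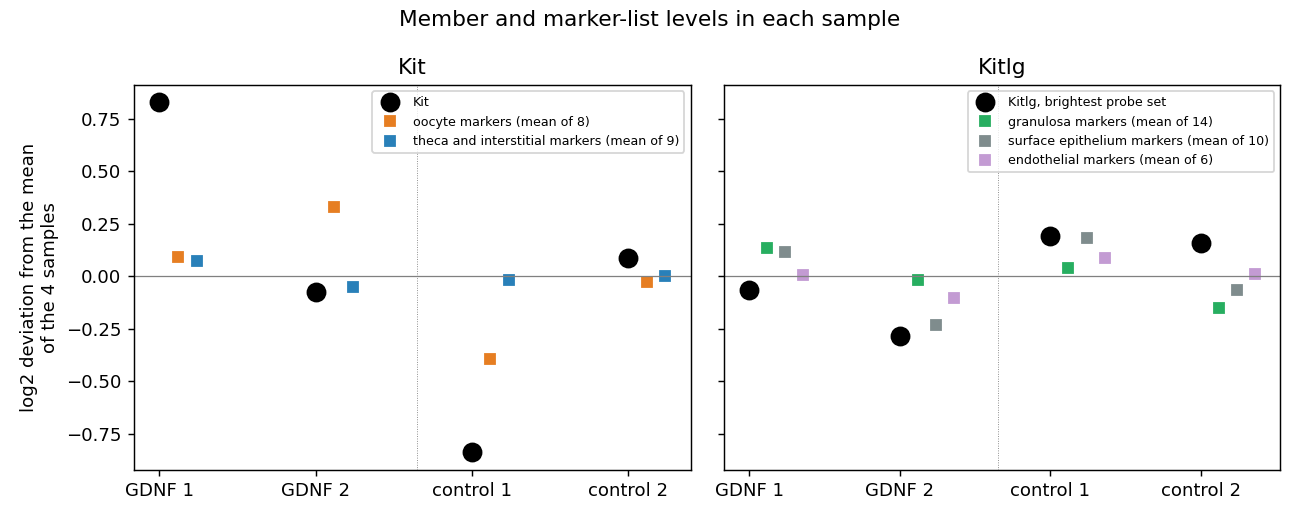
Log2 deviation from the mean of the 4 samples for Kit (left panel) and the brightest Kitlg probe set (right panel), black points, with the mean deviation of marker lists (squares, number of genes in the legend), by sample. Kit is highest in GDNF replicate 1 (0.83) and lowest in control replicate 1 (-0.84), while oocyte markers are highest in GDNF replicate 2 (0.33).

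Below the receptor, the effectors that carry the Kit signal were balanced. Of 42 listed, 33 had a probe set and 30 were tested, 13 with a higher and 17 with a lower mean. None passed (0 called), and the median log2 fold change was -0.04. Without overlap, 4 lay above and 5 below, near the shares over all probe sets tested (13.4% and 16.6%). Stat5b, among the 13, reached the filter only through the GDNF samples. Foxo1, a transcription factor that Akt phosphorylates, stood highest at 0.67, with 209.5 and 93.5 in GDNF samples, against 99.7 and 76.7 in control samples. Its groups overlapped, and it was 0.095 without GDNF replicate 1. Pik3cd, a catalytic PI3K subunit of mainly blood cells, stood next at 0.64, with 93.1 and 83.4 in GDNF samples, against 44.1 and 71.4 in control samples. It did not overlap, and was 0.30 without control replicate 1, and 0.19 with overlap in a dimmer probe set. The lowest were the adaptors Crkl (-0.24, and 0.06 without GDNF replicate 2) and Shc1 (-0.21). Shc1, which links the receptor to Ras, gave 455.5 and 489.4 in GDNF samples, against 549.7 and 543 in control samples, with no overlap.

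Of the genes that restrain Kit signalling, 3 had a higher and 9 a lower mean of the 12 tested out of 18 listed. None passed (0 called), and the median was -0.06. Of the 9, 5 lay below without overlap, beside 16.6% of all probe sets tested. Ptpn6, the phosphatase SHP-1 that dephosphorylates Kit in blood cells, stood lowest at -0.40, with 51 and 47.9 in GDNF samples, against 65.7 in both control samples. Cblb, a ubiquitin ligase of activated receptors, came next at -0.24. The highest were the cell cycle inhibitor Cdkn1b (0.17, and -0.01 without control replicate 1) and the ERK phosphatase Dusp6 (0.13, and -0.10 without control replicate 2, with 0.15 and -0.045 in its other probe sets). Over all probe sets tested, 48.5% had a higher mean in GDNF samples.

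The proteases and inhibitors that bear on shedding of the ligand went both ways, with 8 higher and 4 lower of 12 tested, 0 called and a median of 0.02. Adam17, a membrane protease that sheds Kitlg, gave 436.6 and 404.2 in GDNF samples, against 367.8 and 363.8 in control samples, a log2 fold change of 0.20 (SE 0.11). Both GDNF samples lay above both control samples, while Kitlg itself lay below. Adam9 had a log2 fold change of 0.39, but turned to -0.36 without GDNF replicate 1, and it reached the filter only through the GDNF samples. Cma1, the mast cell chymase, which cleaves the ligand (-0.56), and the inhibitor Timp2 (-0.14, -0.080 without control replicate 1, and 0.11 in a dimmer probe set) stood lowest.

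Among the relatives of Kit, the class III receptors and their ligands, 7 of 11 were tested, 3 with a higher and 4 with a lower mean, 0 called and a median of -0.20. Pdgfra, a receptor of platelet-derived growth factor on stromal cells, had 0.20 (SE 0.10), with 638.3 and 599.4 in GDNF samples, against 536.7 and 543 in control samples. Pdgfrb, on its brightest probe set, had 0.055 and turned to -0.15 without control replicate 1. Another Pdgfrb probe set of like brightness had 0.42 (SE 0.18), with both GDNF samples above both control samples, and a dimmer one had 0.14. The ligand Pdgfa was lowest (-0.48, and -0.16 without control replicate 1), followed by Csf1r, the macrophage receptor (-0.27, and -0.18 without control replicate 1). Flt3, a class III receptor of blood progenitors, gave 21.1 and 8.1 in GDNF and 24.1 and 10.7 in control samples, too dim to be tested.

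Of 15 genes linked to the control of Kit or Kitlg, 7 were tested, 6 with a higher and 1 with a lower mean, 0 called and a median of 0.26, which was 0.0093 without GDNF replicate 2. Tal1, a transcription factor that acts on Kit in blood progenitors, stood highest at 0.58, with 28.7 and 29.1 in GDNF samples, against 18.8 and 19.3 in control samples. Its control signals lay below the filter, so it was tested only through the GDNF samples, and its place in the list is no support for a difference. Myb followed with 0.47, which was 0.19 without control replicate 1 and 0.24 without GDNF replicate 2. Sp1, a factor whose motif is the GC box, was lowest (-0.047, and 0.15 in another probe set of like brightness). Hif1a was next (0.06, and 0.0093 without GDNF replicate 2). Sohlh1, a germ-cell E-box factor that in mice is needed for Kit in oocytes, gave 151.7 and 228.4 in GDNF samples, against 143.5 and 168.1 in control samples, with overlap. Lif, Fgf7 and Fgf2, secreted factors linked to Kitlg in cultured rat ovaries, were below the level filter and were not tested.

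**Figure D4:**
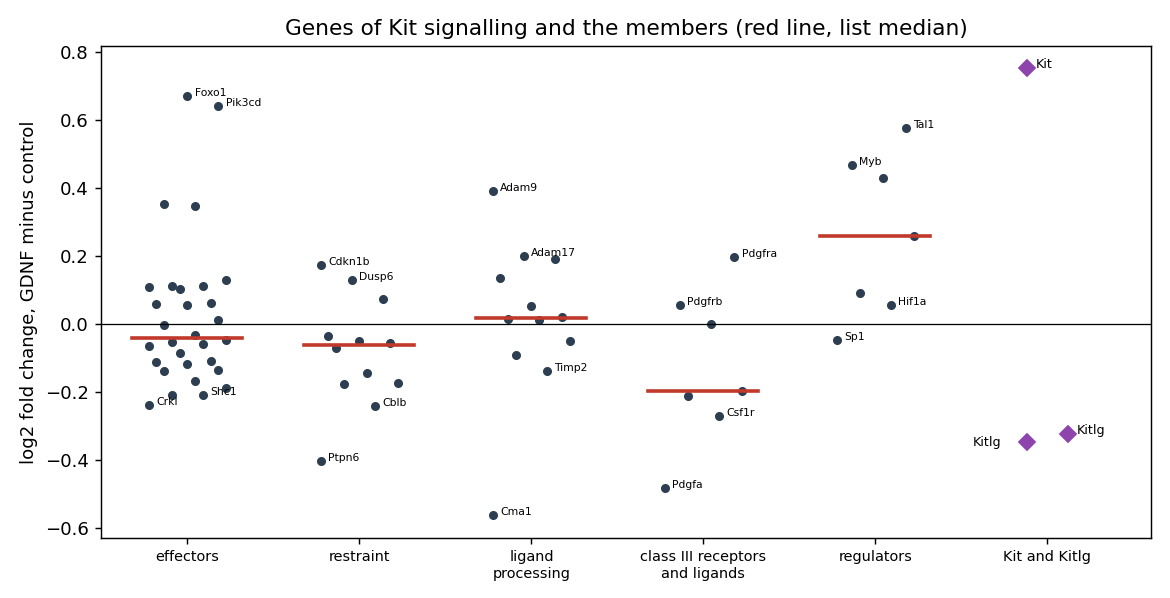
Log2 fold change, GDNF minus control, of each tested gene in the 5 lists around Kit signalling (dots, spread sideways for legibility; red lines are list medians), with the 3 tested Kit and Kitlg probe sets as diamonds. Foxo1 (0.67) and Pik3cd (0.64) are the highest list genes and Cma1 (-0.56) the lowest, and Kit (0.75) lies above them all.

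The genes most like each member were found by the Euclidean distance between deviations from their own means over the 4 samples, on the log2 scale. For Kit the 5 nearest of 14246 probe sets were Pde4d (distance 0.111), Zcchc24 (0.202), Ttr (0.300), Gsr (0.346) and Mon2 (0.353), against a length of 1.18 for the Kit deviations themselves. Pde4d, a cyclic AMP phosphodiesterase, gave 40.8 and 19.6 in GDNF samples, against 12.3 and 22.6 in control samples. It shared with Kit the high GDNF replicate 1, the low control replicate 1 and the close pair of replicate 2 samples. For Kitlg, on its brightest probe set, they were Colgalt1 (0.0352), Scarf2 (0.0430), Acyp2 (0.0486), Ercc4 (0.0580) and Bag3 (0.0587), against a length of 0.382. Colgalt1, a collagen galactosyltransferase, gave 66.5 and 57 in GDNF samples, against 78.9 and 79.6 in control samples. With 4 arrays, patterns this close are a description of these samples.

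Array-wide measures bear on all of these values. Median signal per array was between 36.7 and 41.1. Beta-actin control probes near the 3′ end read brighter than those near the 5′ end, a sign of RNA integrity or labelling, by factors of 2.62 and 3.61 in GDNF replicates 1 and 2, against 3.76 and 3.34 in control replicates 1 and 2. The factor was lowest in GDNF replicate 1, the sample with the highest Kit signal, and highest in control replicate 1, the sample with the lowest. Control replicate 2 and GDNF replicate 2 lay between in the same inverse order, so for Kit it held over all 4 arrays. The brightest Kitlg probe set showed no such order, with its lowest signal in GDNF replicate 2 and its highest in control replicate 1. How many of all probe sets follow the factor in this way was not counted. The part of this factor in the Kit difference was not tested. Precision is set by there being 4 arrays, and an exact two-sided permutation test of 2 against 2 cannot give a p below 0.333.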

How the data were processed

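RNA of 4 pooled-ovary samples (2 GDNF, 2 control, grouped by title) was measured on 1 Affymetrix array each. The deposited values are linear intensities. The authors computed them in MAS5, whose version is not named, per the submitters' processing notes. MAS5 subtracts a mismatch estimate and scales each array, so dim signals are noisy and changes in total RNA are not seen. Trimmed of 2% at either end, each array averaged 125.03 to 125.04.

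Of 31099 probe sets, 57 Affymetrix controls were set aside, and log2(signal + 1) was tested for the 18625 probe sets at or above the 40th percentile of the mean. Groups were compared over all of them with limma 3.58.1 in R 4.3.3 (lmFit, eBayes with a trend), two-sided, with Benjamini-Hochberg adjustment at 0.05; standard errors are moderated. Symbols come from GEO's platform annotation, and both members were found in RefSeq. The fit was run on simulated data drawn from its own variance model with independent samples. That checked the code and not whether these arrays follow the model. The members and the 12 gene lists (190 genes, 151 with a probe set of that symbol alone) were chosen with earlier results of these data known. Lists are described on the brightest tested probe set of each gene, and named list genes are the 2 highest and 2 lowest of each list and the defining markers. Likeness names the 5 nearest genes. Alternatives were median centring, quantile normalization, the 60th percentile as filter or none, a pseudocount of 16, a block for the replicate number, an untrended eBayes, all probe sets of a gene, leaving out each sample and, added after seeing the data, marker sums without each gene in turn.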

Additional observations from a re-analysis of the deposited data

How the results depend on the processing

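Kit kept a positive and the brightest Kitlg probe set a negative log2 fold change under every alternative in which it was tested (10 for Kit, which lay below the filter at the 60th percentile, and 11 for Kitlg), and neither passed the threshold in any. Kit ran from 0.29 to 1.22 with adjusted p from 0.408 to 1.00, and Kitlg from -0.46 to -0.24 with adjusted p from 0.262 (replicate block) to 1.00. The extremes of both log2 fold changes came from samples left out. The number of probe sets called was 0 under each alternative except the replicate block, which called 8. With that block Kit had an adjusted p of 0.609, Kitlg 0.262 and Kitlg 1396214_at 0.880, and Gdf9 passed (log2 fold change 0.61, limma adjusted p = 0.0469). What the number marks is not in the labels, and 1 residual degree of freedom was left. The differences between replicates 1 and 2 correlated across probe sets between the GDNF and control groups (r = 0.32).

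The median of the Kit effectors was -0.015 with all probe sets of a gene, and with each sample left out it lay between -0.020 and 0.0061, too near 0 for a direction. Over the samples left out in turn, values that turned ran from -0.89 to 0.24 for Kitlg 1396214_at, -1.81 to 0.46 for the untested Kitlg 1388096_at (-0.20 with a pseudocount of 16), -0.54 to 0.062 for Crkl, -0.011 to 0.36 for Cdkn1b, -0.10 to 0.36 for Dusp6, -0.36 to 1.14 for Adam9, -0.15 to 0.26 for Pdgfrb, -0.034 to 0.55 for Sohlh1, -0.051 to 0.44 for Uchl1, -0.14 to 0.71 for Lhcgr, -0.16 to 1.48 for Mcpt1, -0.42 to 0.34 for Cpa3, -0.032 to 0.24 for Dct, -0.11 to 0.29 for Mitf, -0.18 to 0.17 for Emcn, -0.20 to 0.12 for Esam, -0.26 to 0.0092 for Pecam1 and -0.022 to 1.16 for Dsp. Emcn also turned with quantile normalization (0.0093) and median centring (0.014). The cause was not tested in each case. Medians of lists whose direction turned when 1 sample was left out were those of ligand processing (-0.19 to 0.17), class III receptors (-0.34 to 0.05), theca (-0.14 to 0.03), melanocytes (-0.07 to 0.27) and surface epithelium (-0.42 to 0.02). The 2 dimmest Kitlg probe sets lay below the level filter.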
